A study of Mus musculus with 4 samples.

Results

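Mitochondrial protein import genes, together with the *Chchd* and MICOS genes of the same compartments, were examined in hearts of mice at P7 with and without overexpression of *miR-128*. The members were taken by symbol: autosomal protein-coding genes of the *Timm*, *Tomm*, *Chchd* and *Micos* series, with *Samm50*, *Pam16*, *Grpel1*, *Grpel2*, *Pmpca* and *Pmpcb*. The rule gave 40 members among 24454 genes in the count table, and 38 of them passed the filter on low counts, among 14266 genes tested. There were 2 RNA-seq libraries of control hearts (Ctrl, WH7 and WH8) and 2 of *miR-128*-overexpressing hearts (miR-128OE, WH9 and WH10), all from mice at postnatal day 7. Ctrl mice carried *miR-128*TetRE alone, and miR-128OE mice carried *α-MHC*-tTA with *miR-128*TetRE, so that both groups shared the responder allele and the tTA driver was present in miR-128OE mice only. The *α-MHC* promoter restricts the driver to cardiomyocytes, doxycycline in the diet represses the transgene, and the mice were on a C57BL/6 background. An effect of tTA itself and one of *miR-128* cannot be told apart in these groups, and the doxycycline schedule of the sequenced hearts is not given in the sources used here.

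The libraries held 12385863 counts in WH7, 8096870 in WH8, 12440553 in WH9 and 14359838 in WH10. WH8 was thus the shallowest, and 3 counts, taken as the detection floor, correspond there to 0.371 CPM (counts scaled to the library total). Nothing in the labels says whether libraries of a group came from separate animals, so the p-values measure the spread between these samples only. The condition also coincided with sex: *Xist*, which silences an X chromosome in female cells, gave 14543 and 11339 counts in WH7 and WH8 but 94 and 132 in WH9 and WH10, and the Y-linked *Ddx3y* had 13, 7, 1442 and 1768 counts in the same order. Sex and condition cannot be told apart here, and the members lie on autosomes. *Mir128-2*, a precursor locus of the miRNA, had 0, 0, 2 and 10 counts and *Mir128-1* had 0 in all 4 libraries, so that the mRNA libraries do not measure the mature miRNA.

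Nearly all mitochondrial proteins are encoded in the nucleus, made in the cytosol and imported. Precursors are recognised by receptors of the TOM complex and pass its pore in the outer membrane, after which β-barrel proteins are inserted by the SAM complex, carrier proteins are escorted by small TIM chaperones to TIM22, and proteins with a cleavable presequence are drawn by TIM23 and its ATP-driven motor into the matrix, where the processing peptidase cuts the presequence off. MICOS shapes the crista junctions of the inner membrane, and proteins with the CHCH fold work mostly in the intermembrane space. Cardiomyocytes fill with mitochondria as they mature after birth, and their import machinery supplies that growth.

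With the main scaling of the libraries (TMM), more than 1 in 2 of the tested import genes were higher in miR-128OE hearts. With edgeR's quasi-likelihood test and p-values adjusted by Benjamini-Hochberg over all genes tested, 23 of the 38 tested members were higher, 0 were lower, and 15 did not pass the threshold of 0.05, where 16.5% of all genes tested were higher and 15.0% were lower. At an adjusted p-value under 0.05 and at least 1.5-fold, 9 members were higher, where 6.55% of all genes were. In 32 members both miR-128OE libraries stood above both Ctrl libraries, against 33.7% of all genes tested, and in 2 members both stood below, against 34.4%. The median log2 fold change of the 38 members was 0.38, beside −0.01 for all genes tested. With the libraries scaled to cardiomyocyte markers instead, 10 members were higher and 2 lower. The median was then 0.13, beside −0.27 for all genes. Of 10 cardiomyocyte markers, 4 were higher and 2 lower, and 3 of 5 fat markers were higher, as described below. The median standard error of the fold changes over the members was 0.09 on the log2 scale. It comes from the fit with TMM and does not include the change between scalings. Summed over the 40 members, the raw level was 3041 CPM in WH7, 3036 in WH8, 3865 in WH9 and 3769 in WH10. The members thus took 0.304% of the counts in Ctrl and 0.382% in miR-128OE hearts.

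**Figure D1:**
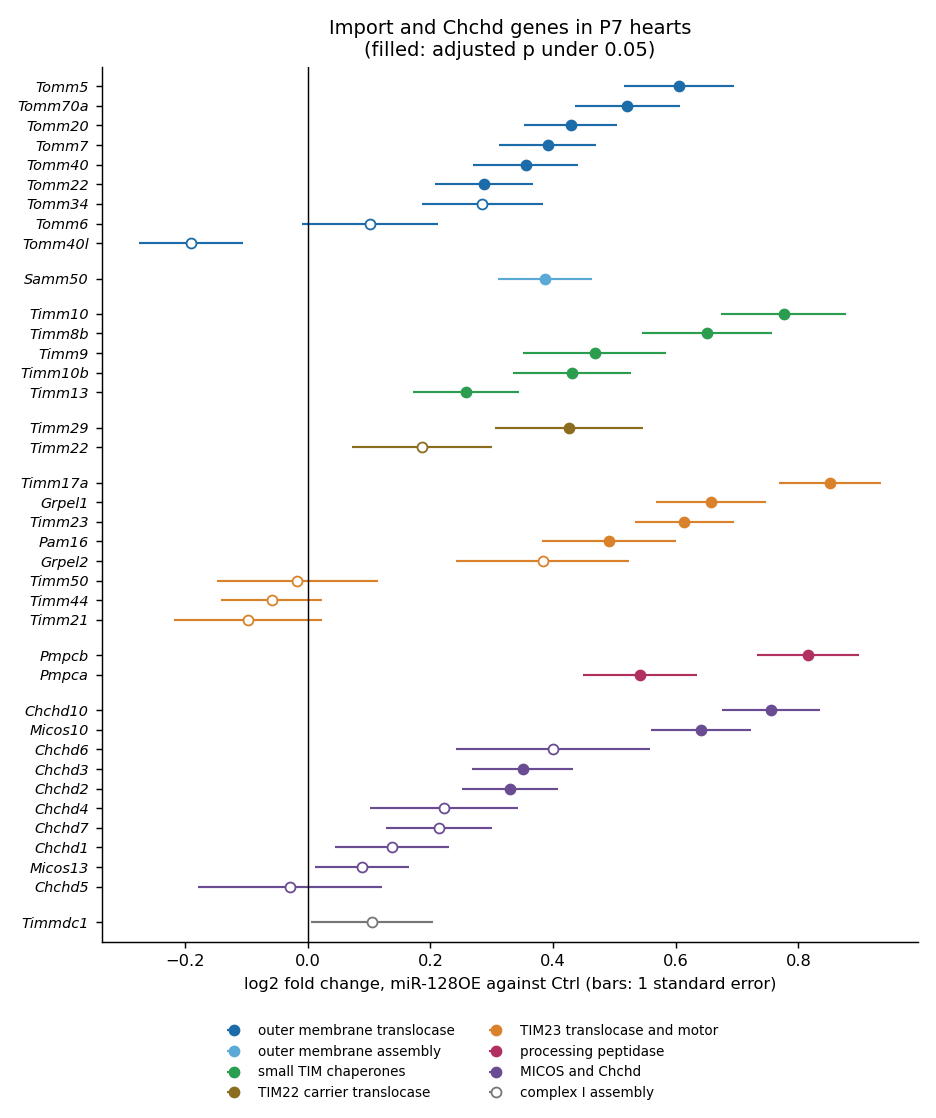
Log2 fold change between miR-128OE and Ctrl hearts (x axis) for the 38 tested members (y axis), grouped by role, with bars of 1 standard error and n = 2 libraries per group. Filled points mark an adjusted p-value under 0.05; all 23 filled points lie to the right of 0, and the lowest open point is *Tomm40l* at −0.19.

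Each library was also set against the mean of the 4 libraries, as a log2 deviation of normalized counts (counts divided by TMM-corrected library size and brought back to the mean of those sizes). The median deviation over the members was −0.19 in WH7, −0.19 in WH8, 0.19 in WH9 and 0.17 in WH10, while the median over all genes was within 0.01 of 0 in every library. Within the Ctrl pair, 22 of 38 members were higher in WH8 than in WH7, with a median log2 difference of 0.02. Within the miR-128OE pair, 5 of 38 members were higher in WH10 than in WH9, with a median of −0.06. With a library left out, 23 members were higher and 1 lower without WH7, and 25 and 0 without WH8. The count of higher members was 12 without WH9 and 15 without WH10, with 0 lower in both.

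Promoters of members that rose together are shown for *Timm23*, *Timm8b*, *Pmpcb* and *Tomm20*, since these hold letters that match motifs of regulators known for nuclear genes of mitochondria: nuclear respiratory factor 1 (NRF1), GA-binding protein (GABPA, also called NRF2) and the estrogen-related receptors (ERR), with the E-box beside them. The sequences are from RefSeq on GRCm38.p6 and give the 150 bases before the annotated start, 5′ to 3′ on the strand of the gene, with motif matches in capitals. *Timm23* is on the minus strand (chr14:32201892-32202041), *Timm8b* on the plus strand (chr9:50603751-50603900), *Pmpcb* on the plus strand (chr5:21737010-21737159) and *Tomm20* on the minus strand (chr8:126945922-126946071).
Timm23: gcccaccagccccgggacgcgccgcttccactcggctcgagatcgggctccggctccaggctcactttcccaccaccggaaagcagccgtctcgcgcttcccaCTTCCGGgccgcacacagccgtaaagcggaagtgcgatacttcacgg
Timm8b: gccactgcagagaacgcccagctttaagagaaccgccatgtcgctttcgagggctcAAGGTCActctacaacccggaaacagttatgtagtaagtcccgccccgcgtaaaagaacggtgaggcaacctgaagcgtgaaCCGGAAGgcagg
Pmpcb: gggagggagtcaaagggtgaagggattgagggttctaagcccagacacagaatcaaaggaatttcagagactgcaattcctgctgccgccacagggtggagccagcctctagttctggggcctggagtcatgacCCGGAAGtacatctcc
Tomm20: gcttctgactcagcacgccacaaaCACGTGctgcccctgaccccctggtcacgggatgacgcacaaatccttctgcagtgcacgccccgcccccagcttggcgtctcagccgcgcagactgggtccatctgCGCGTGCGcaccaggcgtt

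The GABPA letters CCGGAAG, or their reverse complement, begin 47 bases before the start of *Timm23*, 12 before that of *Timm8b* and 16 before that of *Pmpcb*. The ERR letters AAGGTCA begin 94 bases before the start of *Timm8b*, and *Tomm20* holds the E-box CACGTG from base −126 and, as the reverse complement, the NRF1 letters CGCANGCG from base −19. Over the whole window of 250 bases before to 50 after the start, searched on both strands, 32 tested members had a promoter in the table. The GABPA letters were in 15 of these 32 (46.9%), against 17.3% of 10780 promoters of tested genes, and the ERR letters in 5 (15.6%), against 3.02%. NRF1 letters were in 7 (21.9%, against 16.7%), E-boxes in 5 (15.6%, against 10.1%) and the YY1 letters AAGATGG in 4 (12.5%, against 7.04%). The median log2 fold change was 0.52 for members with GABPA letters and 0.36 for those without, 0.61 and 0.39 for ERR, 0.43 and 0.40 for NRF1, 0.43 and 0.40 for the E-box, and 0.52 and 0.41 for YY1. These differences were not tested. Over all tested genes with the letters the medians were 0.026 for GABPA, −0.015 for ERR, 0.045 for NRF1, 0.024 for the E-box and 0.016 for YY1. Members that missed the threshold held such letters too: *Timmdc1* had 4 GABPA matches and *Chchd5* had 3, *Timm44* held ERR letters, and *Timm50* held NRF1 and YY1 letters. A match describes the letters and not occupancy by the factor, and no binding was measured.

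In the outer membrane translocase, 6 of 9 tested members were higher and 0 lower, and the median log2 fold change was 0.36. *Tomm5*, a small subunit of the TOM core, had normalized counts of 498 and 505 in WH7 and WH8 and 784 and 742 in WH9 and WH10. Its groups were far apart, at 0.61 ± 0.09 (SE) on the log2 scale (adjusted p = 0.00119 from edgeR). *Tomm70a*, the receptor for carrier precursors, had 768 and 796 normalized counts in Ctrl and 1167 and 1077 in miR-128OE hearts (log2 fold change 0.52 ± 0.08, adjusted p = 0.00194 from edgeR). *Tomm20*, the receptor for presequences, rose from 1281 ± 8.37 to 1724 ± 29.9 normalized counts (SD, n = 2), and the pore *Tomm40* rose from 705 ± 27.7 to 902 ± 38.2. The other 2 that rose were the small subunit *Tomm7* and the receptor *Tomm22*, with log2 fold changes of 0.39 and 0.29. The genes that rose thus included the 3 receptors *Tomm20*, *Tomm22* and *Tomm70a*, the pore gene and the small subunits *Tomm5* and *Tomm7*. Of the 14 settings tried, *Tomm22* lost its call under 6, DESeq2 and total counts among them, and *Tomm40* under 4. *Tomm7* lost it under 3, *Tomm20* under 2 and *Tomm70a* under 1, while *Tomm5* kept it under all 14.

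Among the members of this group that missed the threshold, *Tomm34*, a cytosolic co-chaperone of import, had 418, 454, 530 and 529 normalized counts in WH7, WH8, WH9 and WH10, with both miR-128OE libraries above both Ctrl libraries (log2 fold change 0.28, adjusted p = 0.0531 from edgeR), and it passed the threshold under 4 of the 14 settings. For *Tomm6*, a small TOM subunit, the groups overlapped, at 757, 623, 785 and 704 normalized counts. *Tomm40l*, a paralog of the pore gene, had 994 and 1088 in Ctrl and 923 and 898 in miR-128OE hearts, so that it lay below Ctrl in both libraries (log2 fold change −0.19 ± 0.08, adjusted p = 0.115 from edgeR). Exons of *Tomm40l* share 3304 bases with those of *Nr1i3*, and those of *Tomm6* share 859 bases with *Gm21981*, so that their counts are uncertain. *Tomm20l*, a paralog of *Tomm20*, had 0, 6, 4 and 6 raw counts in WH7, WH8, WH9 and WH10 and did not pass the filter. *Samm50*, the core of the SAM complex that inserts β-barrel proteins, rose from 1618 and 1563 normalized counts to 2126 and 2036 (log2 fold change 0.39 ± 0.08, adjusted p = 0.00523 from edgeR). Its call was lost under 2 of the 14 settings.

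All 5 tested small TIM chaperones were higher in the edgeR test, *Timm13* narrowly, with a median log2 fold change of 0.47. *Timm10* had 314 and 307 normalized counts in Ctrl and 540 and 524 in miR-128OE hearts (log2 fold change 0.78 ± 0.10, adjusted p = 0.00067 from edgeR). Its partner in the hexamer, *Timm9*, had 289 and 331 in Ctrl and 408 and 444 in miR-128OE hearts, with a log2 fold change of 0.47. *Timm8b* had 435 and 406 in Ctrl and 710 and 616 in miR-128OE hearts (log2 fold change 0.65 ± 0.11, adjusted p = 0.00196 from edgeR). In each of the 3 genes both miR-128OE libraries stood above both Ctrl libraries, as in 33.7% of all genes tested. *Timm10b*, which docks the hexamer at TIM22, rose from 408 ± 12.9 to 549 ± 2.08 normalized counts, a log2 fold change of 0.43. *Timm9* and *Timm10b* each lost the call under 3 of the 14 settings tried. *Timm13* had 1079, 982, 1194 and 1274 normalized counts and stood just inside the threshold, with a log2 fold change of 0.26 and an adjusted p of 0.0474 from edgeR. It lost the call under 8 of the 14 settings tried, DESeq2, total counts and the GC and length offset among them. *Timm8a2* had a single count, in WH7, and was not tested. The X-linked *Timm8a1*, which the rule leaves out, had 295, 321, 516 and 472 normalized counts in the 4 libraries and was higher as well (log2 fold change 0.68, adjusted p = 0.00183 from edgeR).

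At the inner membrane the carrier translocase and the presequence translocase were mixed. *Timm22*, the channel for carriers, had 370 and 325 normalized counts in Ctrl and 412 and 384 in miR-128OE hearts and missed the threshold, with a log2 fold change of 0.19 and a 95% interval of −0.04 to 0.41. *Timm29*, a metazoan subunit of the same complex, had 343, 310, 475 and 406 and was higher (log2 fold change 0.43 ± 0.12, adjusted p = 0.0249 from edgeR), but lost the call under 4 of the 14 settings tried, DESeq2 and total counts among them. In the TIM23 translocase and its motor, 4 of 8 members were higher and 0 were lower. *Timm17a*, which forms the protein path of TIM23, showed the largest log2 fold change of all members, with 904 and 938 normalized counts in Ctrl and 1730 and 1594 in miR-128OE hearts (0.85 ± 0.08, adjusted p = 0.000163 from edgeR). The gene lies at chr1:135301535-135313737 on GRCm38.p6. *Timm23*, the gene for which the complex is named, had 1364 and 1276 in Ctrl and 2083 and 1964 in miR-128OE hearts (0.61 ± 0.08, adjusted p = 0.000677 from edgeR). Of the motor, *Grpel1*, the nucleotide exchange factor of mortalin, rose from 621 ± 47.6 to 976 ± 32.0 normalized counts, and *Pam16*, a regulator of its ATPase cycle, rose from 406 ± 41.0 to 574 ± 38.2. Exons of *Pam16* share 455 bases with those of *Glis2*, so that its counts are uncertain, and it lost the call under 2 of the 14 settings.

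The other TIM23 members did not follow *Timm17a* and *Timm23* past the threshold. *Timm50*, the receptor of the complex, had 382, 353, 406 and 325 normalized counts in WH7, WH8, WH9 and WH10, with overlapping groups and a 95% interval of −0.27 to 0.24 for the log2 fold change. *Timm44*, which tethers mortalin to the channel, had 1196, 1240, 1213 and 1125, again with overlapping groups (−0.06, interval −0.22 to 0.10). *Timm21*, which couples TIM23 to TOM and the respiratory chain, had 275, 256, 250 and 248, with both miR-128OE libraries just below Ctrl (−0.10, interval −0.34 to 0.14). These 3 members and the 4 that rose were parted by the same test, and the gap between them was not itself tested. *Grpel2*, the second exchange factor, had 215, 276, 317 and 316, above Ctrl in both miR-128OE libraries but with a wide gap within the Ctrl pair (log2 fold change 0.38, adjusted p = 0.0646 from edgeR). Its log2 fold change was 0.20 without WH7 and 0.56 without WH8, and it passed the threshold under 4 of the 14 settings. The X-linked *Timm17b*, the paralog of *Timm17a*, had 414, 317, 376 and 357 normalized counts and a log2 fold change of −0.01 (interval −0.28 to 0.26).

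Both subunits of the mitochondrial processing peptidase were higher. The catalytic subunit *Pmpcb* had 733 and 780 normalized counts in Ctrl and 1364 and 1295 in miR-128OE hearts (log2 fold change 0.82 ± 0.08, adjusted p = 0.000207 from edgeR). *Pmpca*, the subunit that binds the presequence, had 506 and 561 in Ctrl and 787 and 761 in miR-128OE hearts (0.54 ± 0.09, adjusted p = 0.00251 from edgeR). For both subunits the miR-128OE libraries stood above the Ctrl libraries, as in 33.7% of all genes tested. Exons of *Pmpca* share 874 bases with those of *Inpp5e*, so that its counts are uncertain.

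**Figure D2:**
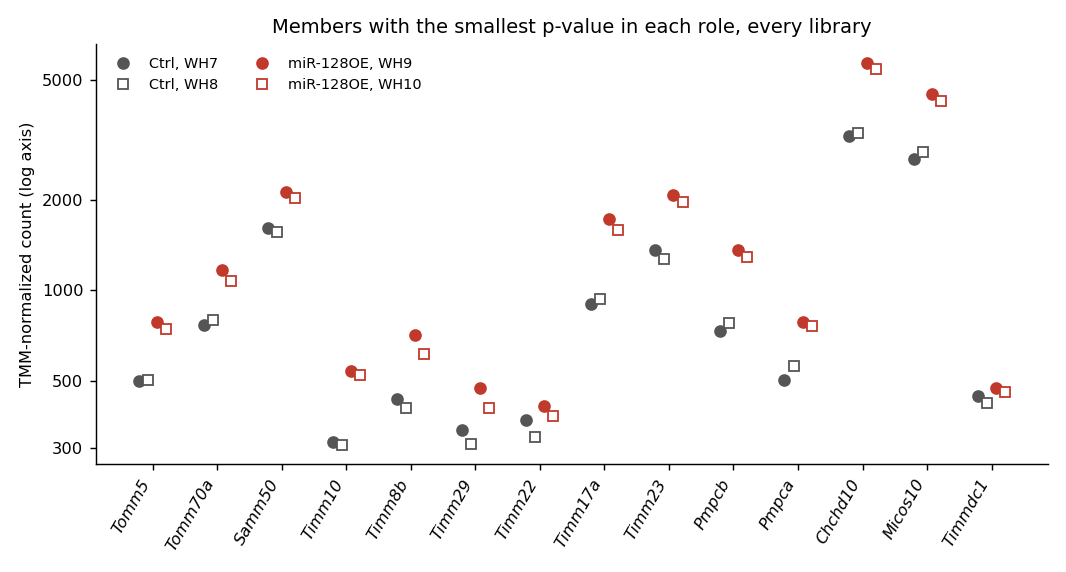
TMM-normalized counts on a log axis (y axis) in each of the 4 libraries for the leading members of each role by p-value (x axis); circles and squares stand for single libraries. In *Timm17a* both miR-128OE libraries (1730 and 1594) stand above both Ctrl libraries (904 and 938), and in *Timmdc1* the 4 libraries lie close together, between 421 and 475.

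Of the 10 MICOS and *Chchd* members, 4 were higher and 0 lower, and their median was 0.28 on the log2 scale. *Chchd10*, an intermembrane space protein mutated in cardiomyopathy and motor neuron disease, had 3270 and 3334 normalized counts in Ctrl and 5701 and 5448 in miR-128OE hearts (0.76 ± 0.08, adjusted p = 0.000236 from edgeR). *Micos10*, the MIC10 subunit that bends the membrane at crista junctions, had 2729 and 2889 in Ctrl and 4501 and 4258 in miR-128OE hearts (0.64 ± 0.08, adjusted p = 0.000554 from edgeR). *Chchd3*, the MIC19 subunit, rose from 2068 ± 62.1 to 2635 ± 174 normalized counts, and *Chchd2*, the close relative of *Chchd10*, rose from 3758 ± 26.3 to 4723 ± 77.2. The call of *Chchd2* was lost under 4 of the 14 settings, the GC and length offset and the loss of either miR-128OE library among them, and that of *Chchd3* under 2. In these 4 genes both miR-128OE libraries lay above both Ctrl libraries, as in 33.7% of all genes tested. The estimate for *Chchd10* was above that for *Chchd2*.

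Other members of this group missed the threshold. *Chchd6*, the MIC25 subunit, had 115, 122, 152 and 159 normalized counts in WH7, WH8, WH9 and WH10, with a log2 fold change of 0.40 and an adjusted p of 0.0819 from edgeR. *Micos13*, the MIC13 subunit that bridges the subcomplexes of MICOS, had 1369, 1382, 1487 and 1439 (0.09, interval −0.06 to 0.24). *Chchd4*, the oxidoreductase MIA40 that folds proteins of the intermembrane space, had 282, 256, 328 and 302 (0.22, interval −0.02 to 0.46). In these 3 genes both miR-128OE libraries stood above both Ctrl libraries, an order that 33.7% of all genes tested also had. *Chchd7* had 660, 711, 794 and 793 normalized counts and a log2 fold change of 0.21, and *Chchd1*, a subunit of the mitochondrial ribosome, had 557, 591, 652 and 608 and 0.14. *Chchd5* had 157, 150, 147 and 155, with groups that overlapped. *Timmdc1*, an assembly factor of complex I that shares the fold of the TIM23 family, had 445, 421, 475 and 458, with a log2 fold change of 0.10.

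Levels differed widely among the members, as CPM per kilobase of the longest coding transcript in GENCODE M21. In Ctrl hearts the most abundant members on this scale were *Chchd2* at 361, *Chchd10* at 195 and *Micos13* at 160, and the least abundant of those tested was *Grpel2* at 5.33. Among the import genes proper, *Timm23* stood at 98.9, *Tomm7* at 94.3, *Tomm40* at 37.6 and *Timm22* at 10.8. Spearman's rho between the log2 fold change and this Ctrl level was 0.07 over the 38 members, which share libraries and depth. Since the Ctrl level enters both quantities, the value is only a description.

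Ratios of counts between partner genes were computed within each library, since they do not depend on library scaling. The ratio of *Timm17a* to *Timm17b* was 2.18 and 2.96 in Ctrl and 4.60 and 4.47 in miR-128OE hearts. *Timm23* to *Timm22*, the channels for presequences and for carriers, gave 3.68 and 3.93 in Ctrl and 5.06 and 5.12 in miR-128OE hearts. *Chchd10* to *Chchd2* gave 0.875 and 0.883 in Ctrl and 1.19 and 1.17 in miR-128OE hearts, so that the order of these 2 genes in raw counts turned. The ratio of *Pmpca* to *Pmpcb* fell from 0.690 and 0.719 to 0.577 and 0.588, and that of *Grpel2* to *Grpel1* lay at 0.366 and 0.421 in Ctrl and at 0.317 and 0.332 in miR-128OE hearts. Among the small TIM chaperones, *Timm13* to *Timm8b* gave 2.48, 2.42, 1.68 and 2.07 in WH7, WH8, WH9 and WH10. *Tomm20* to *Tomm40*, receptor to pore, moved little, with 1.88, 1.76, 1.88 and 1.95 in the same order. For *Chchd3* to *Chchd6*, of 9 ratios computed, the groups overlapped. With 2 libraries per group the exact two-sided permutation test cannot go below p = 0.33, so the ratios are a description.

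**Figure D3:**
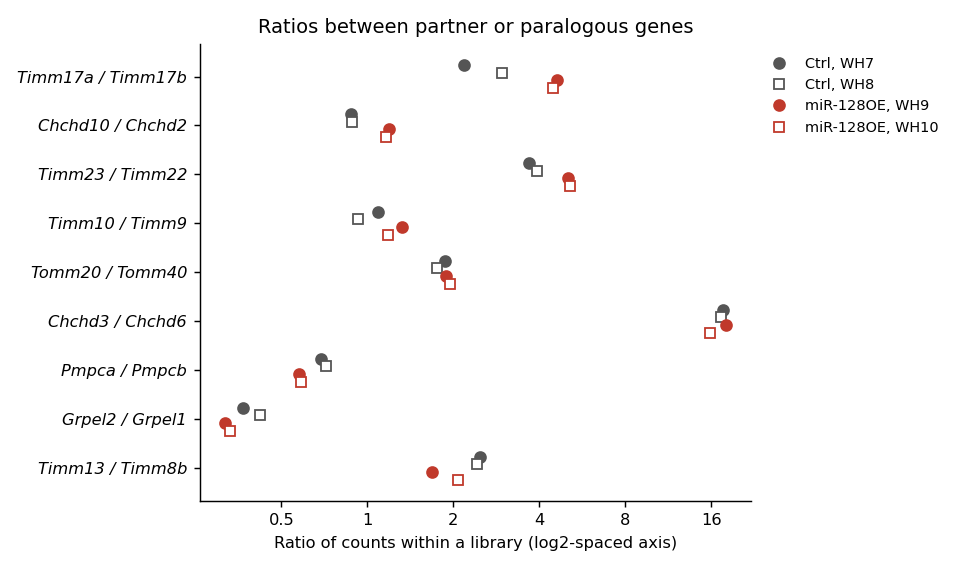
Ratio of counts (x axis, spaced by log2) between 9 pairs of partner or paralogous genes (y axis), 1 point per library. The miR-128OE points of *Timm17a* to *Timm17b* (4.60 and 4.47) lie right of the Ctrl points (2.18 and 2.96), and those of *Pmpca* to *Pmpcb* lie left of them.

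Other genes of import and of protein quality control in mitochondria were taken from a list of 37, which includes *Timm8a1* and *Timm17b*. In miR-128OE hearts 17 of them were higher and 0 lower, at a median log2 fold change of 0.26. *Romo1*, a small inner membrane protein, had 1019 and 947 normalized counts in Ctrl and 1558 and 1554 in miR-128OE hearts (0.66 ± 0.08, adjusted p = 0.00048 from edgeR). *Mtx2*, a partner of *Samm50* in the outer membrane, had 590, 674, 1057 and 1018 (0.72, adjusted p = 0.000615 from edgeR). *Aifm1*, which brings MIA40 into place, had 454, 437, 815 and 727 (0.79, adjusted p = 0.000505 from edgeR). In these 3 genes the miR-128OE libraries lay above the Ctrl libraries, as in 33.7% of all genes tested. *Aifm1*, *Apoo*, *Apool* and *Timm8a1*, 4 of the 17 higher genes, are X-linked, and sex and condition cannot be told apart here. The MICOS subunits *Apoo* and *Apool* were higher by 0.59 and 0.56 on the log2 scale, the peptidase *Mipep* by 0.56, the J protein *Dnajc15* by 0.52 and the insertase *Oxa1l* by 0.46. *Immt*, the largest MICOS subunit, had a log2 fold change of 0.26 and passed narrowly (adjusted p = 0.0478 from edgeR). The matrix chaperones missed the threshold: *Hspa9*, which encodes mortalin, had 3145, 3607, 4121 and 3795 normalized counts, and *Hspd1* had 3178, 3437, 3695 and 3262 with overlapping groups. *Gfer*, the sulfhydryl oxidase that recharges MIA40, had 210, 174, 211 and 193, so that the disulfide relay of *Chchd4* and *Gfer* did not pass the test in either gene.

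The import genes were set beside other lists of nuclear genes for mitochondria. Among 36 tested genes with *Ndufa*, *Ndufb*, *Ndufc*, *Ndufs* and *Ndufv* symbols, 31 were higher and 0 lower, at a median log2 fold change of 0.52. Most of these encode subunits of complex I, but the list also holds *Ndufa4*, a subunit of complex IV, and its paralog *Ndufa4l2*. Of 78 mitochondrial ribosomal proteins, 49 were higher and 2 lower, at a median of 0.35. In the *Slc25* family of solute carriers, the main cargo of the TIM22 route, 13 of 40 were higher and 4 lower, at a median of 0.12. The import members lay between these lists, and the differences between the lists were not tested. Genes of the mitochondrial genome were not analysed here.

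**Figure D4:**
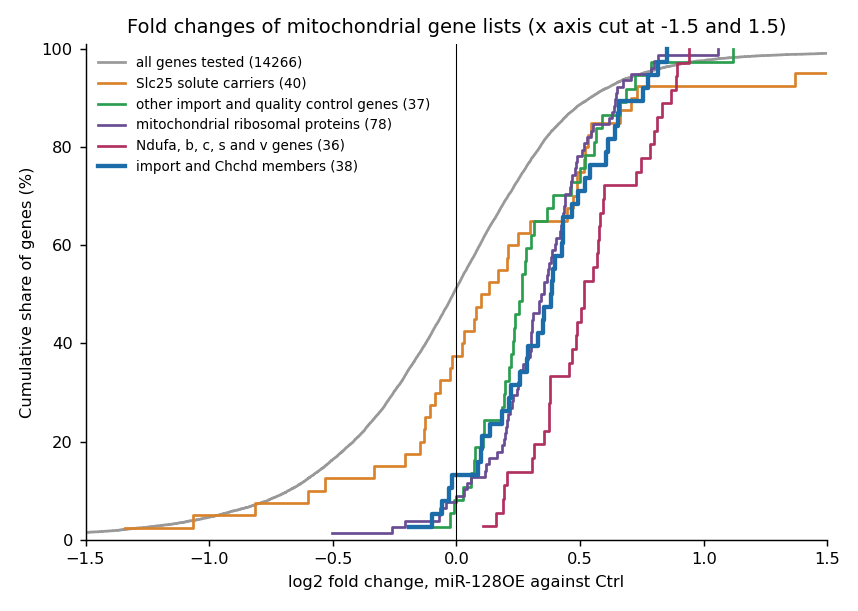
Cumulative share of genes (y axis, %) at or below each log2 fold change (x axis, drawn to 1.5 on either side of 0) for the members, 4 other mitochondrial lists and all genes tested. At the median, the curve of the 38 members (0.38) lies right of that of all genes (−0.01). It lies left of the *Nduf* genes there (0.52) and close to the mitochondrial ribosomal proteins (0.35). The curve of the members ends at 0.85, while that of all genes runs on past the drawn range.

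Members with sites for *miR-128* were sought, since the miRNA was the agent of the experiment. Mature miR-128-3p is shown from RefSeq (chr1:128202404-128202424, plus strand, GRCm38.p6) with its seed, bases 2 to 8, in capitals. The sites of *Timm17a*, the member with the largest rise, follow, then those of *Timm29*, the second of which joins both kinds of match. The site of *Tomm40l*, the member with the lowest estimate, comes last. The site lines are read 5′ to 3′ along the mRNA, from the longest annotated 3′UTR in GENCODE M21, with the matched letters in capitals. These are CACTGTG, which pairs with the whole seed, or ACTGTGA, which pairs with bases 2 to 7 and ends in an A opposite base 1, or both joined in the second site of *Timm29*. They lie at chr1:135297589-135297595 and chr1:135295250-135295256 on the minus strand for *Timm17a*, at chr9:21594909-21594915 and chr9:21595829-21595836 on the plus strand for *Timm29*, and at chr1:171216374-171216380 on the minus strand for *Tomm40l*.
miR-128-3p: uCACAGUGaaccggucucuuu
Timm17a, site 1: ggtttagatctcCACTGTGgtg
Timm17a, site 2: ctttgatgatgaACTGTGAtat
Timm29, site 1: cagcctcaaactCACTGTGtag
Timm29, site 2: tcctccgatttgCACTGTGAcct
Tomm40l: tgctgacagtatCACTGTGtca

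The letters CACTGTG or ACTGTGA were in the 3′UTR of 7 of 38 tested members (18.4%), against 31.0% of the 13463 tested genes with a 3′UTR. These shares were not adjusted for 3′UTR length, which was 83 bases in *Pam16* and 6705 in *Timm17a*. A longer 3′UTR has more room for the letters. The 7 were *Micos10*, *Timm17a*, *Timm29*, *Tomm40l*, *Tomm70a*, *Grpel2* and *Timm21*. Their median log2 fold change was 0.43, with 4 of 7 higher, and the median of members without a site was 0.36. Neither the shares nor the medians were tested. Of all 4175 tested genes with a site 653 were higher, at a median of −0.015, beside 0.0011 for genes without one. *Timm17a* and *Micos10*, with 2 and 3 sites, were among the members that rose most. *Tomm40l* and *Timm21*, with a site each, had both miR-128OE libraries below Ctrl, as had 34.4% of all genes tested. The sites of *Timm17a*, *Tomm40l* and *Tomm70a* lie beyond the ends that RefSeq gives for these genes.

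Whole hearts hold several cell types, and fewer cells of a type and less RNA per cell cannot be told apart in them. All 10 cardiomyocyte markers were detected, led by *Myh6*, and their summed level was 53569 CPM in WH7, 58118 in WH8, 61672 in WH9 and 62081 in WH10. Of these markers 4 were higher (*Actn2*, *Myl3*, *Pln* and *Myh6*) and 2 were lower (*Ryr2* and *Ttn*). The list was thus mixed, and its part in the difference of the import genes was not tested. With the libraries scaled to these markers in place of TMM, the median over all genes moved to a log2 fold change of −0.27 and that over the members to 0.13, and 10 members were higher and 2 lower (*Tomm40l* and *Timm44*). The 10 were *Timm17a*, *Pmpcb*, *Timm10*, *Chchd10*, *Grpel1*, *Timm8b*, *Micos10*, *Timm23*, *Tomm5* and *Pmpca*, and the same 10 were higher under each of the 14 settings tried, which were other tests, scalings, filters and left-out libraries. The other 13 of the 23 higher members each lost the call under 1 to 8 of these settings. Scaling to total counts put these medians at −0.11 and 0.29, with 20 members higher and 1 lower (*Tomm40l*).

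**Figure D5:**
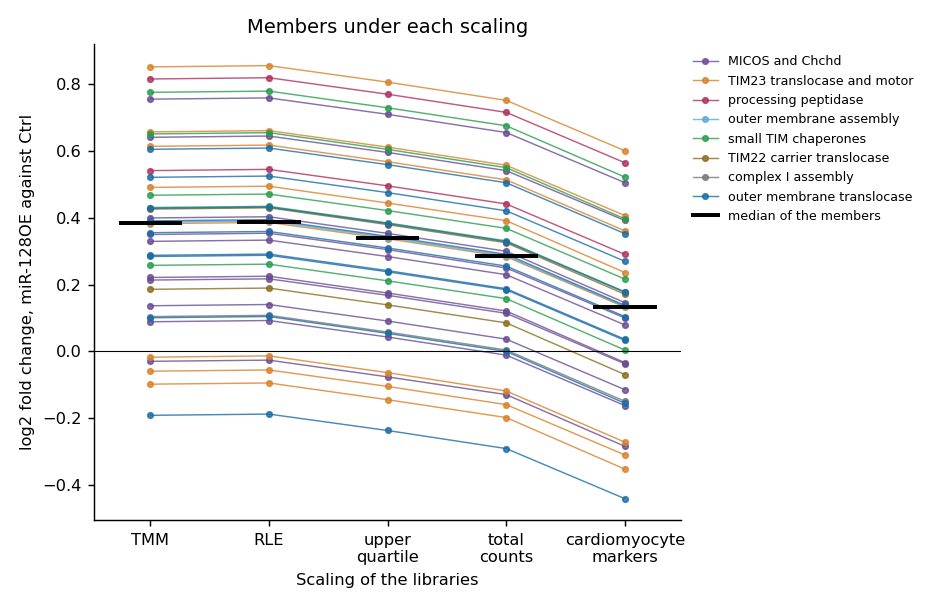
Log2 fold change of each of the 38 tested members (y axis) under 5 scalings of the libraries (x axis); lines join the values of 1 gene, colours give its role and black bars mark the median. The median falls from 0.38 with TMM to 0.29 with total counts and 0.13 with cardiomyocyte markers; a scaling shifts all genes by about the same amount, so the lines run parallel by construction.

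Markers of other cells differed between single libraries. The 4 atrial genes *Nppa*, *Myl7*, *Myl4* and *Sln*, led by *Nppa*, summed to 6114 CPM in WH7, 722 in WH8, 2017 in WH9 and 2634 in WH10, so that WH7 and WH8 lay on either side of the miR-128OE libraries. The members' counts without each of them were 23 higher and 1 lower without WH7, and 25 and 0 without WH8. The 8 fibroblast markers, led by *Col3a1*, summed to 10342, 6650, 8377 and 9257 CPM in WH7, WH8, WH9 and WH10, with 1 of 8 higher and WH7 highest. The 8 leukocyte markers, led by *Csf1r*, summed to 119, 87.7, 85.7 and 88.7 CPM, with WH7 again highest and 0 of 8 called by edgeR. The 7 endothelial markers, led by *Cdh5*, summed to 1862, 1851, 1795 and 1755 CPM, with 2 higher and 2 lower.

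Brown fat is rich in mitochondria and can be dissected along with the heart. *Ucp1*, its defining gene, had 56, 3, 253 and 189 counts in WH7, WH8, WH9 and WH10, and 3 of the 5 fat markers were higher (*Ucp1*, *Cidea* and *Adipoq*). The sum of this list, led by *Fabp4*, which endothelial cells also express, was 1634, 1691, 1610 and 1512 CPM. Its part in the difference of the import genes was not tested. Of the skeletal muscle markers, led by *Ckm*, the 2 tested (*Ckm* and *Acta1*) were higher, and the list summed to 786, 694, 941 and 972 CPM. *Myod1* was at 0 in every library, and *Myog* had 4, 0, 4 and 2 counts in WH7, WH8, WH9 and WH10. The erythroid list, led by *Alas2*, summed to 40.6, 28.0, 69.3 and 63.6 CPM, and 1 of its 2 tested genes was higher (*Alas2*, log2 fold change 1.05). *Hba-a1*, *Hba-a2*, *Hbb-bs* and *Hbb-bt* were at 0 in every library, and how these globin genes were counted is not given in the sources used here. Smooth muscle and pericyte markers, led by *Acta2*, summed to 1751, 1675, 2081 and 2346 CPM, with 2 of 6 higher and 1 lower. The 4 epicardial markers summed to 110, 53.2, 59.1 and 54.9 CPM, led by *Msln*, with WH7 highest. Markers of lung and thymus summed to under 1 CPM in every library.

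Several members share sequence with neighbours. Exons of 12 tested members overlapped those of another protein-coding gene in GENCODE M21, among them *Chchd10*, *Grpel1*, *Pam16*, *Pmpca*, *Timm8b*, *Timm9*, *Timm10b*, *Timm13* and *Tomm70a*, and the handling of strand is not given in the sources used here. The overlap was 41 bases between *Tomm70a* and *Nit2* and 155 between *Chchd10* and *Mmp11*, but 411 between *Grpel1* and *Tada2b*, 455 between *Pam16* and *Glis2*, 376 between *Timm10b* and *Gm45799* and 874 between *Pmpca* and *Inpp5e*. Counts of *Grpel1*, *Pam16*, *Timm10b* and *Pmpca* are thus uncertain as well, and so are the ratios that use *Grpel1* or *Pmpca*. Among the 26 tested members with no such overlap, 13 were higher, with a median log2 fold change of 0.34.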

How the data were processed

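Per the paper's methods and the labels, the authors aligned RNA-seq reads of P7 hearts to mm10 with TopHat2 and deposited raw read counts per Entrez gene for 4 libraries. Gene models, strand and the treatment of multi-mapping reads are not given in the sources used here. Total counts ran from 8096870 to 14359838. Detection floors of 3 counts cover counting error only, as PCR reads without molecular identifiers are not independent molecules.

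The counts were fitted with edgeR 4.0.16 in R 4.3.3 (filterByExpr, minimum count 10, minimum total 15; TMM factors; quasi-likelihood test; no covariates), after the edgeR model that the study used. P-values were Benjamini-Hochberg adjusted over 14266 genes, with a threshold of 0.05. Standard errors are the log2 fold change over the square root of F, and 95% intervals are 1.96 standard errors to each side. This normal approximation makes the intervals narrower than the degrees of freedom of the quasi-likelihood test would. Of 24454 identifiers, 24374 were matched to a RefSeq or GENCODE M21 symbol. Replicates of a group differed by more than sampling noise (chi-square over degrees of freedom 11.7 in Ctrl, 5.55 in miR-128OE), so none was treated as a repeat deposit of another library. This does not show that they came from separate animals.

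The members and gene lists were chosen with earlier results of these data known. Values in every library are given for the 2 members of each role with the smallest p-value, for members that missed the threshold or overlapped between groups, and for those near the floor; other values are examples. Alternatives were edgeR's exact and likelihood ratio tests, DESeq2 1.42.0, other scalings, filters and thresholds, a GC and length offset (loess, span 0.5), and each library left out. Leaving out members that overlap other coding genes was added after the data were seen. Sites, promoters and summaries used Python 3.11.15 with scipy 1.17.1. A list of cell type markers is not reported here.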

Additional observations from a re-analysis of the deposited data

How the results depend on the processing

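The count of 23 higher members stayed within 1.5 times (20 to 25) under the exact, likelihood ratio and DESeq2 tests, RLE, upper-quartile and total-count scaling, autosomal genes alone, no filter and the GC and length offset, and was 16 at an adjusted p-value under 0.01. It was 10 with cardiomyocyte marker scaling, 9 at 1.5-fold or more, 13 without members that overlap another coding gene, and 12 to 25 with a library left out. Among the left-out libraries, the lowest counts came without WH9 (12) and WH10 (15), where the lone miR-128OE library is assumed to vary like Ctrl; the cause of their gap was not tested. The count of lower members was 1 with total counts, 2 with cardiomyocyte marker scaling and 0 to 1 with a library left out (*Tomm40l*, without WH7). The median log2 fold change of 0.38 became 0.34 with upper-quartile factors, 0.29 with total counts, 0.13 with cardiomyocyte marker scaling, 0.40 with autosomal genes alone, 0.40 with no filter, 0.29 with the GC and length offset, 0.34 without overlapping members and 0.34 to 0.42 with a library left out. All reversals were in members that missed the threshold. With cardiomyocyte marker scaling, which lowers every gene alike, these were *Chchd1* (−0.11), *Chchd4* (−0.033), *Chchd7* (−0.037), *Micos13* (−0.16), *Timm22* (−0.069), *Timmdc1* (−0.15) and *Tomm6* (−0.16). With the GC and length offset they were *Chchd1* (−0.028), *Micos13* (−0.0700) and *Tomm6* (−0.054), and the cause was not tested. With total counts, which also lowers every gene by about the same amount, the reversal was in *Micos13* (−0.011). With a library left out, *Chchd5* ranged from −0.057 to 0.022, *Timm44* from −0.10 to 0.012, *Timm50* from −0.17 to 0.16 and *Tomm6* from −0.023 to 0.255. Of the 23 higher members, 10 kept their call under all 14 settings, and 5 of the 15 that missed the threshold passed it, in either direction, under at least 1. No paired analysis was possible because the labels give no shared replicate numbers. WH8 was the shallowest library, with 8096870 counts.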
